A study of Homo sapiens with 10 samples.

Results

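The serpins are a family of proteins named for inhibition of serine proteases. They were taken here as every gene row of the deposited tables whose symbol is made of SERPIN, a clade letter from A to I and a number. Described here are 34 of the 35 such genes, among 23170 gene rows, and statements on the family cover these 34 only. RNA-seq had been performed on 10 samples of 4 lines that all stem from the human prostate cancer line PC3, to follow gene expression when mesenchymal cells regain epithelial features. PC3-Epi (2 samples) is a luciferase-positive epithelial subpopulation of PC3. PC3-EMT14 (3 samples) is a mesenchymal subpopulation recovered after PC3-Epi had been grown with macrophages made from IL4-treated CD14+ monocytes. PC3-EMT14-OVOL1 (3 samples) was made by transducing PC3-EMT14 with a lentivirus that overexpresses the zinc finger transcription factor OVOL1. PC3-EMT14-OVOL2 (2 samples) was made likewise with the related factor OVOL2. A line with an empty lentivirus was not analysed here. Each group is a single derived line, so an effect of the treatment and a property of that line cannot be told apart. The tables give 1 FPKM value (fragments scaled by transcript length and an adjusted library size) for each gene and line. Each value was pooled by the authors over the samples of that line. The spread between samples and the depth behind each value are therefore unknown, no SD or n stands beside a level, and no difference below could be tested.

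A serpin traps a protease by offering a reactive loop as bait. When the protease cuts the loop, the serpin folds into a more stable form and holds the enzyme in a covalent complex. Clade B members mostly stay inside the cell, whereas members such as SERPINA1 and SERPINE2 are secreted. Some relatives, among them SERPINH1 and SERPINB5, are not known as protease inhibitors. Several secreted serpins restrain the plasminogen activators PLAU (urokinase) and PLAT (tissue-type), which make plasmin and so favour the breakdown of fibrin and matrix around moving tumor cells.

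The lines carried the labelled features. OVOL1 had 11.3 FPKM in the line transduced with it, compared with 0.02 FPKM in PC3-EMT14. OVOL2 had 831 FPKM in the line transduced with it, compared with 0.38 FPKM in PC3-EMT14. E-cad (CDH1) was at 1.00 FPKM in PC3-EMT14, 50.6 FPKM in PC3-Epi, 16.2 FPKM in PC3-EMT14-OVOL1 and 39.2 FPKM in PC3-EMT14-OVOL2, while ZEB1, a repressor of E-cad, was at 7.59, 0.13, 4.25 and 1.77 FPKM in the same order. The prostate markers KLK3 and KLK2 were listed at 0 in all 4 lines. Of 12 macrophage markers, 11 were below 1 FPKM in each line, with summed levels of 0.483 to 0.657 FPKM. The remaining marker, CD68, which many other cells also express, was at 13.2 FPKM in PC3-Epi and between 51.2 and 57.8 FPKM in the other lines. In bulk RNA, fewer cells of a type and less RNA per cell cannot be told apart.

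Of the 34 serpin genes, 14 had a mean of at least 1 FPKM over the 4 lines and are called expressed here, out of 12113 such genes in the tables. None of the other serpins described here reached 1 FPKM in any line. Of the 20 remaining genes, 6 were listed at 0 in all 4 lines: SERPINC1 (antithrombin) and the clade A genes SERPINA4, SERPINA9, SERPINA11, SERPINA12 and SERPINA13. The other 14 reached at most 0.515 FPKM, the level of SERPINF1 (PEDF) in PC3-EMT14. SERPINA3, an inhibitor of cathepsin G, was at 0.269 FPKM in PC3-Epi and listed at 0 in PC3-EMT14 and PC3-EMT14-OVOL2. SERPINA5, the protein C inhibitor, had 0.122 FPKM in PC3-Epi and was listed at 0 in PC3-EMT14. These levels are too low to be read as differences. Of the 9 clade A genes on chromosome 14 that the tables hold from a list of 10, only SERPINA1 was expressed.

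Summed over these 34 genes, serpin RNA amounted to 455 FPKM in PC3-EMT14, 312 FPKM in PC3-Epi, 388 FPKM in PC3-EMT14-OVOL1 and 509 FPKM in PC3-EMT14-OVOL2. SERPINB7 led in PC3-EMT14 and in both OVOL lines, with 30.8%, 29.4% and 25.7% of the sum, and made up 11.0% in PC3-Epi. In PC3-Epi the leading serpin was SERPINB5, with 19.4%, followed by SERPINB6 with 18.6% and SERPINB1 with 17.7%. In PC3-EMT14-OVOL2, SERPINB1 came second with 23.6%, compared with 11.8% in PC3-EMT14. Clade B genes contributed 79.0% in PC3-EMT14, 75.7% in PC3-Epi, 82.4% in PC3-EMT14-OVOL1 and 85.3% in PC3-EMT14-OVOL2.

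**Figure D1:**
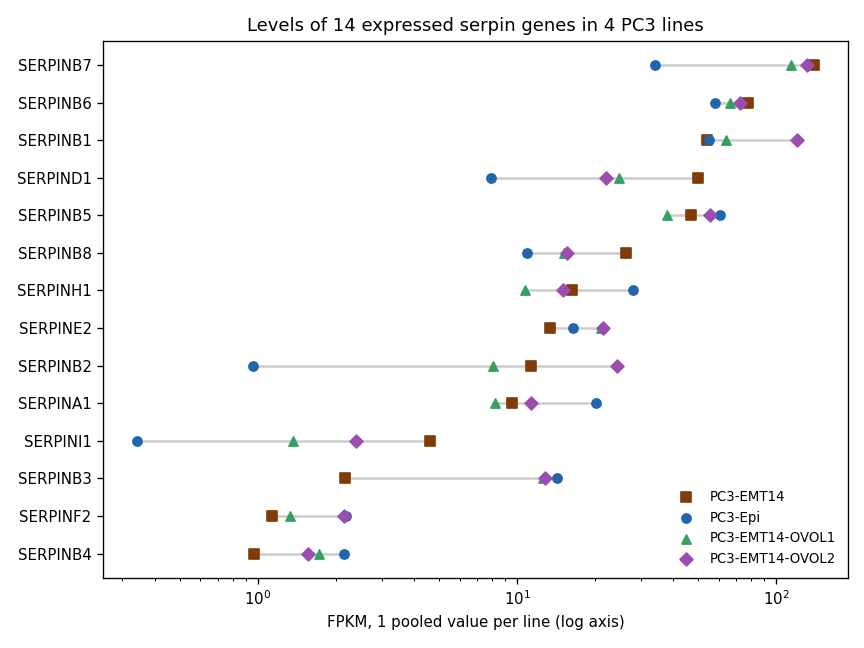
Pooled FPKM of 14 expressed serpin genes (log axis) in the 4 lines, 1 point per line and gene, with no error bars because the values are pooled. SERPINB2 (11.3 and 0.959 FPKM) and SERPINI1 (4.61 and 0.342 FPKM) lie far apart between PC3-EMT14 and PC3-Epi, and SERPINB3 in PC3-EMT14 (2.16 FPKM) lies apart from its level in the other 3 lines (12.5 to 14.3 FPKM).

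The question between PC3-Epi and PC3-EMT14 is which serpins separate the epithelial from the mesenchymal line. Of the 14 expressed genes, 5 were at least 2-fold lower in PC3-Epi: SERPINI1, SERPINB2, SERPIND1, SERPINB7 and SERPINB8. Among all expressed genes, 7.48% were lower by that much. At least 2-fold higher were 3 serpins, SERPINB3, SERPINB4 and SERPINA1, against 6.44% of all expressed genes. With a pseudocount of 1 FPKM, SERPINB4, a gene of low level, came to a log2 ratio of 0.68 and 2 genes were counted as higher. The higher value was in PC3-Epi for 8 of the 14 serpins, compared with 48.9% of all expressed genes. The median log2 ratio of the serpins was 0.16, against -0.02 over all expressed genes. With no filter on low levels, that median was -0.20, so its sign depends on the filter. The serpins lay farther from 0, with a median absolute log2 ratio of 1.12 against 0.35 over all expressed genes.

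For the OVOL lines the question is which serpins differ once OVOL1 or OVOL2 is overexpressed in mesenchymal cells. In PC3-EMT14-OVOL1, only SERPINB3 was at least 2-fold higher than in PC3-EMT14 (background 2.53% of expressed genes), and only SERPINI1 at least 2-fold lower (background 1.16%). In PC3-EMT14-OVOL2, SERPINB1, SERPINB2 and SERPINB3 were at least 2-fold higher (background 4.05%), and SERPIND1 at least 2-fold lower (background 2.41%). The median log2 ratio of the serpins was -0.23 in PC3-EMT14-OVOL1 and 0.29 in PC3-EMT14-OVOL2, against 0.00 and -0.04 over all expressed genes. The median absolute log2 ratio was 0.51 and 0.73, against 0.15 and 0.20 over all expressed genes. Between the OVOL lines, SERPINB2 was at least 2-fold higher in PC3-EMT14-OVOL2 (background 1.6%) and 0 were at least 2-fold lower (background 1.15%). There, 12 of the 14 genes had the higher value in PC3-EMT14-OVOL2, compared with 41.9% of all expressed genes. Some of these 12 hardly differed, with SERPINE2, SERPINB3 and SERPINB8 at 1.03-fold, 1.03-fold and 1.04-fold. The median log2 ratio of the serpins between the OVOL lines was 0.35, against -0.04 over all expressed genes. The comparisons of PC3-Epi and of each OVOL line with PC3-EMT14 share the PC3-EMT14 samples and are not independent of each other.

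**Figure D2:**
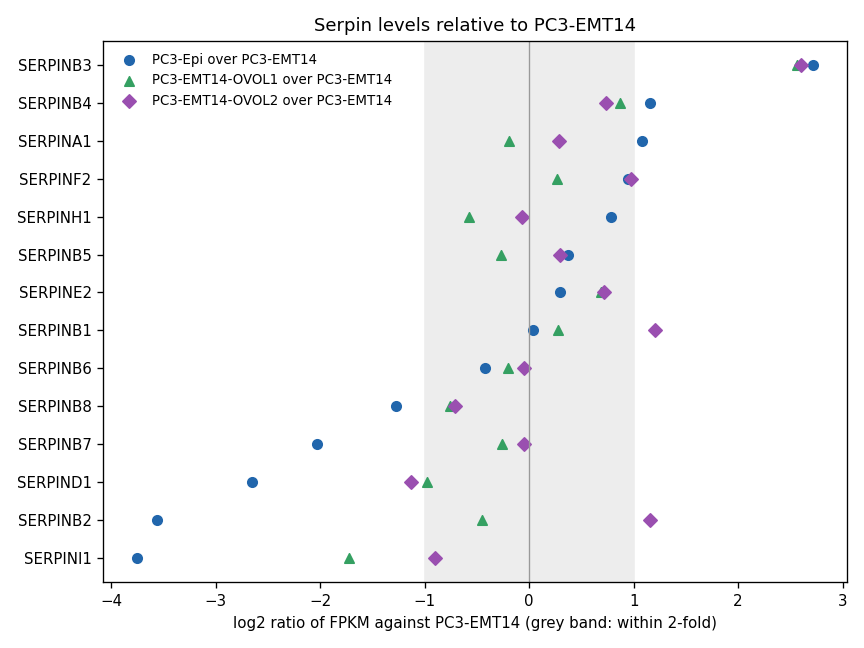
Log2 ratio of pooled FPKM for 14 expressed serpins, with PC3-Epi and each OVOL line set over PC3-EMT14, with a grey band for differences within 2-fold. SERPINB3 lies above the band in all 3 comparisons (log2 ratios 2.72, 2.57 and 2.61), and SERPINB2 lies on opposite sides in PC3-Epi (-3.56) and PC3-EMT14-OVOL2 (1.16).

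Among the serpins that act on the plasminogen system, 4 of 5 listed genes were expressed, and SERPINB2 and SERPINI1 were at least 2-fold lower in PC3-Epi than in PC3-EMT14. SERPINB2 encodes PAI-2, an inhibitor of urokinase that is largely retained in the cell. It was at 11.3 FPKM in PC3-EMT14, 0.959 FPKM in PC3-Epi, 8.10 FPKM in PC3-EMT14-OVOL1 and 24.4 FPKM in PC3-EMT14-OVOL2. PC3-EMT14-OVOL2 held the highest level and PC3-Epi by far the lowest, so the OVOL2 line lay on the far side of PC3-EMT14 from the epithelial line. SERPINB2 was 11.8-fold lower in PC3-Epi than in PC3-EMT14, 1.37-fold lower in PC3-EMT14-OVOL1 and 2.23-fold higher in PC3-EMT14-OVOL2. Between the OVOL lines, it was 3.04-fold higher in PC3-EMT14-OVOL2.

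SERPINI1 encodes neuroserpin, an inhibitor of tissue-type plasminogen activator best known from neurons. Its row, XLOC_014652, covers chr3:167453432-167543357 on the plus strand of hg19. It was at 4.61 FPKM in PC3-EMT14, 0.342 FPKM in PC3-Epi, 1.37 FPKM in PC3-EMT14-OVOL1 and 2.39 FPKM in PC3-EMT14-OVOL2. PC3-EMT14 had the highest level and PC3-Epi the lowest, and PC3-EMT14-OVOL1 lay nearer to PC3-Epi than PC3-EMT14-OVOL2 did. The level was 13.5-fold lower in PC3-Epi, 3.30-fold lower in PC3-EMT14-OVOL1 and 1.87-fold lower in PC3-EMT14-OVOL2. With a level of 0.342 FPKM in PC3-Epi, that ratio rests on a low value.

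The stretch upstream of SERPINI1 is shown because it holds CAGGTG, the E-box letters that ZEB1 can bind. It is the 250 bases before the RefSeq start, at chr3:167735471-167735720 on the plus strand of GRCh38.p14, with the E-box in capitals.
SERPINI1: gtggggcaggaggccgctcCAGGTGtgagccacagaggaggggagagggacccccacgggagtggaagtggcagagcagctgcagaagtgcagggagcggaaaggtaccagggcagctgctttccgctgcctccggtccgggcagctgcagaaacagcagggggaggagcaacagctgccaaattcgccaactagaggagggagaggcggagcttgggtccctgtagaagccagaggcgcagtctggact
The E-box begins at position -231 relative to the start. CAGGTG or its reverse complement CACCTG was found in 4 of the 21 windows that the table holds for 13 expressed serpins (19.0%) and in 20.6% of 35116 promoters of the same 300 bases. The others were SERPINH1 (position -156), SERPINA1 (-192) and SERPINB5 (-26). These 3 genes were higher in PC3-Epi than in PC3-EMT14, by 1.72-fold, 2.11-fold and 1.29-fold, whereas SERPINI1 was lower. CCGTTA was found in 0 of the 21 and in 3.07% of all promoters, on either strand. The OVOL consensus was found in 0 of the 21 and in 0.98% of all promoters, on either strand, and CCGTTA can lie inside a match to it. These letters describe the windows only, and no binding was measured.

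The other expressed plasminogen-system serpins described here differed less. SERPINE2, or protease nexin-1, inhibits thrombin and urokinase. It was at 13.4 FPKM in PC3-EMT14, 16.4 FPKM in PC3-Epi, 21.1 FPKM in PC3-EMT14-OVOL1 and 21.4 FPKM in PC3-EMT14-OVOL2, which was 1.61-fold and 1.65-fold above PC3-EMT14 in the OVOL lines. SERPINF2, or alpha-2-antiplasmin, is the main inhibitor of plasmin itself. Its levels were low, at 1.13 FPKM in PC3-EMT14, 2.18 FPKM in PC3-Epi, 1.33 FPKM in PC3-EMT14-OVOL1 and 2.15 FPKM in PC3-EMT14-OVOL2. PC3-Epi and PC3-EMT14-OVOL2 were 1.92-fold and 1.96-fold higher than PC3-EMT14, both just under the 2-fold limit, and the latter passed it once ratios were centred on the median of all expressed genes.

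Of the 10 clade B genes that lie side by side on chromosome 18, between bases 61144144 and 61656608 of hg19, 6 were expressed. The other 4, SERPINB10, SERPINB11, SERPINB12 and SERPINB13, did not exceed 0.0667 FPKM in any line. The cluster held genes that differed in both directions. In PC3-Epi, the adjacent genes SERPINB3 and SERPINB4 were at least 2-fold higher than in PC3-EMT14, the next expressed genes along the chromosome, SERPINB7, SERPINB2 and SERPINB8, at least 2-fold lower, and SERPINB5 at the other end within 2-fold. Within 1000000 bases of the cluster, the 5 other expressed genes had median log2 ratios over PC3-EMT14 of -0.44 in PC3-Epi, -0.08 in PC3-EMT14-OVOL1 and -0.19 in PC3-EMT14-OVOL2.

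**Figure D3:**
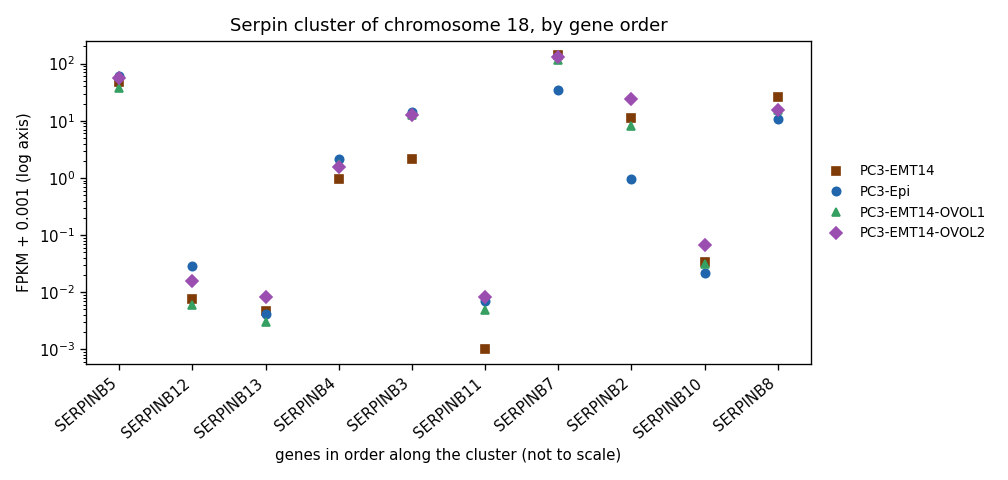
Pooled FPKM plus 0.001 (log axis) of the 10 clade B serpins of chromosome 18, in their order along the chromosome and not to scale, with 1 point per line. SERPINB12, SERPINB13, SERPINB11 and SERPINB10 do not exceed 0.0667 FPKM in any line, while SERPINB7, which lies between SERPINB11 and SERPINB2, ranges from 34.2 to 139.8 FPKM.

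SERPINB3 and SERPINB4 encode the squamous cell carcinoma antigens, of which SERPINB3 inhibits cysteine cathepsins such as cathepsin L and SERPINB4 inhibits chymotrypsin-like enzymes. Both are on the minus strand, and the row of SERPINB3 (XLOC_009866) covers chr18:61322431-61329197 and that of SERPINB4 (XLOC_009865) chr18:61304493-61311502 of hg19. The stretches of 250 bases upstream of their RefSeq starts are shown because these neighbouring copies are nearly identical there. They lie at chr18:63661894-63662143 for SERPINB3 and chr18:63644257-63644506 for SERPINB4 on the minus strand of GRCh38.p14, and capitals mark the bases that differ.
SERPINB3: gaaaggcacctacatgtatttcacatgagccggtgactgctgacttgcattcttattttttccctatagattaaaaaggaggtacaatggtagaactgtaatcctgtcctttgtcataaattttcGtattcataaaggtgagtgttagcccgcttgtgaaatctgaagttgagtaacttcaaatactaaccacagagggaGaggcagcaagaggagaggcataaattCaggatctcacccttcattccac
SERPINB4: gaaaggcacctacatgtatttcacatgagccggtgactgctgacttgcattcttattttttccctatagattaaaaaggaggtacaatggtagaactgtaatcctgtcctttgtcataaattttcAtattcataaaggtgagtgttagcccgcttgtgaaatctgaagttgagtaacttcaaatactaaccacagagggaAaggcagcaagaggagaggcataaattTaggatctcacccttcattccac
Of the 250 bases, 247 are identical (98.8%). The differences from SERPINB3 to SERPINB4 are G126A, G201A and C228T, counted from 1 at the 5′ end of the printed stretch.

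SERPINB3 was at 2.16 FPKM in PC3-EMT14, 14.3 FPKM in PC3-Epi, 12.5 FPKM in PC3-EMT14-OVOL1 and 12.8 FPKM in PC3-EMT14-OVOL2. It was the only expressed serpin at least 2-fold from PC3-EMT14 in the same direction in PC3-Epi and in both OVOL lines, at 6.59-fold, 5.92-fold and 6.09-fold higher. The levels of the 3 lines lay close together, and the OVOL lines differed by only 1.03-fold. SERPINB4 was lower throughout, at 0.964 FPKM in PC3-EMT14, 2.14 FPKM in PC3-Epi, 1.73 FPKM in PC3-EMT14-OVOL1 and 1.55 FPKM in PC3-EMT14-OVOL2. Its ratios to PC3-EMT14 were smaller, at 2.22-fold, 1.83-fold and 1.66-fold higher. The longest protein-coding transcripts of this pair are identical in 1633 of 1707 aligned columns (95.7%), and 413 of the 1658 windows of 50 bases in SERPINB3 (24.9%) occur exactly in SERPINB4. Reads of the length sequenced here can thus be divided between these genes, and their separate levels are uncertain. The annotation also places exons of SERPINB11 over SERPINB3 on the other strand, and the deposited level of SERPINB11 was at most 0.00711 FPKM. Whether reads from SERPINB11 contribute to the SERPINB3 values was not tested.

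SERPINB7, or megsin, was first known from the mesangial cells of the kidney and is also made in the epidermis. It had the highest mean level of the 34 genes, with 139.8 FPKM in PC3-EMT14, 34.2 FPKM in PC3-Epi, 114 FPKM in PC3-EMT14-OVOL1 and 131 FPKM in PC3-EMT14-OVOL2. PC3-Epi stood apart at 4.09-fold below PC3-EMT14, while the OVOL lines were within 1.20-fold of PC3-EMT14. SERPINB8, an inhibitor of the proprotein convertase furin, was at 26.4 FPKM in PC3-EMT14, 10.9 FPKM in PC3-Epi, 15.2 FPKM in PC3-EMT14-OVOL1 and 15.6 FPKM in PC3-EMT14-OVOL2. It was 2.41-fold lower in PC3-Epi, and 1.70-fold and 1.64-fold lower in the OVOL lines, which differed from each other by 1.04-fold. The annotation places exons of HMSD over SERPINB8, and those of a gene without a symbol over SERPINB2, on the same strand, so reads in the shared stretches cannot be told apart.

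SERPINB5, or maspin, is a clade B relative without a known protease target that is made by epithelial cells and has been studied as a tumor suppressor. It was at 46.8 FPKM in PC3-EMT14, 60.6 FPKM in PC3-Epi, 38.0 FPKM in PC3-EMT14-OVOL1 and 55.7 FPKM in PC3-EMT14-OVOL2. All lines lay within 2-fold, with PC3-Epi 1.29-fold above PC3-EMT14 and the OVOL lines on either side of it. SERPINH1, or HSP47, is a collagen chaperone of the endoplasmic reticulum. It was at 16.3 FPKM in PC3-EMT14, 28.1 FPKM in PC3-Epi, 10.7 FPKM in PC3-EMT14-OVOL1 and 15.1 FPKM in PC3-EMT14-OVOL2. PC3-Epi was 1.72-fold above PC3-EMT14, and PC3-EMT14-OVOL1 was 1.49-fold below it.

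The clade B genes on chromosome 6 behaved differently from each other. SERPINB1 inhibits neutrophil elastase and cathepsin G inside cells. It was at 53.8 FPKM in PC3-EMT14, 55.1 FPKM in PC3-Epi, 63.7 FPKM in PC3-EMT14-OVOL1 and 120.4 FPKM in PC3-EMT14-OVOL2. Only PC3-EMT14-OVOL2 stood apart, at 2.31-fold above PC3-EMT14 and 1.91-fold above PC3-EMT14-OVOL1, while PC3-Epi lay within 1.02-fold of PC3-EMT14. SERPINB6, an intracellular inhibitor of trypsin-like proteases and cathepsin G, was at 77.6 FPKM in PC3-EMT14, 57.9 FPKM in PC3-Epi, 66.1 FPKM in PC3-EMT14-OVOL1 and 72.7 FPKM in PC3-EMT14-OVOL2, all within 1.34-fold of PC3-EMT14. SERPINB9, the granzyme B inhibitor beside them, was not expressed, at 0.083 to 0.316 FPKM.

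Among the serpins of coagulation and complement, 2 of 6 listed genes were expressed, SERPIND1 and the SERPINF2 described above. SERPIND1, or heparin cofactor II, inhibits thrombin and is mainly a product of the liver. It was at 49.8 FPKM in PC3-EMT14, 7.93 FPKM in PC3-Epi, 24.8 FPKM in PC3-EMT14-OVOL1 and 22.1 FPKM in PC3-EMT14-OVOL2. Both OVOL lines lay between the others and close together. The level was 6.28-fold lower in PC3-Epi, 2.18-fold lower in PC3-EMT14-OVOL2 and 1.96-fold lower in PC3-EMT14-OVOL1, so these OVOL ratios fall on opposite sides of the 2-fold limit although they differ little. The row of SERPIND1 (XLOC_013704) covers chr22:21061979-21213070 of hg19, a wider span than the gene, which is annotated at chr22:21128401-21142008 on the plus strand. SERPIND1 lies inside PI4KA, a lipid kinase gene on the minus strand, with no shared exon. PI4KA was at 20.2 FPKM in PC3-EMT14, 10.03 FPKM in PC3-Epi, 15.3 FPKM in PC3-EMT14-OVOL1 and 15.0 FPKM in PC3-EMT14-OVOL2. It was lower in the same lines by 2.01-fold, 1.29-fold and 1.30-fold. Whether reads from PI4KA introns contribute to the SERPIND1 values was not tested.

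SERPINA1, or alpha-1-antitrypsin, is the main inhibitor of neutrophil elastase in blood. It was at 9.56 FPKM in PC3-EMT14, 20.2 FPKM in PC3-Epi, 8.20 FPKM in PC3-EMT14-OVOL1 and 11.3 FPKM in PC3-EMT14-OVOL2. PC3-Epi was 2.11-fold above PC3-EMT14 and the OVOL lines were within 1.22-fold of it. The isoform table divides the gene into 11 transcripts, and the one listed as TCONS_00010748 carried most of the difference. It was at 3.62 FPKM in PC3-EMT14, 15.6 FPKM in PC3-Epi, 3.98 FPKM in PC3-EMT14-OVOL1 and 6.64 FPKM in PC3-EMT14-OVOL2, or 37.9%, 77.1%, 48.5% and 58.7% of the gene. TCONS_00010749 went the other way, with 2.83 FPKM in PC3-Epi (14.0% of the gene) compared with 4.66 FPKM in PC3-EMT14 (48.7%).

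Isoform shares of other serpins differed less. Of the pair of SERPINB7 transcripts, TCONS_00015777 was at 45.9 FPKM in PC3-EMT14, 5.49 FPKM in PC3-Epi, 25.4 FPKM in PC3-EMT14-OVOL1 and 43.2 FPKM in PC3-EMT14-OVOL2. It was 8.37-fold lower in PC3-Epi than in PC3-EMT14, and TCONS_00015778 was 3.27-fold lower, so the share of the former was 32.9% in PC3-EMT14, 16.1% in PC3-Epi, 22.2% in PC3-EMT14-OVOL1 and 33.0% in PC3-EMT14-OVOL2. SERPINE2 TCONS_00020607 was a minor transcript in all lines, at 0.859 FPKM in PC3-EMT14, 2.18 FPKM in PC3-Epi, 0.921 FPKM in PC3-EMT14-OVOL1 and 2.53 FPKM in PC3-EMT14-OVOL2. A SERPINB8 transcript, TCONS_00015784, was at 2.35 FPKM in PC3-EMT14-OVOL1 (15.5% of the gene) and listed at 0 in PC3-EMT14 and PC3-Epi. Transcripts of a gene share reads, so these shares are estimates whose error is not known, and the exons that distinguish them were not analysed here.

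**Figure D4:**
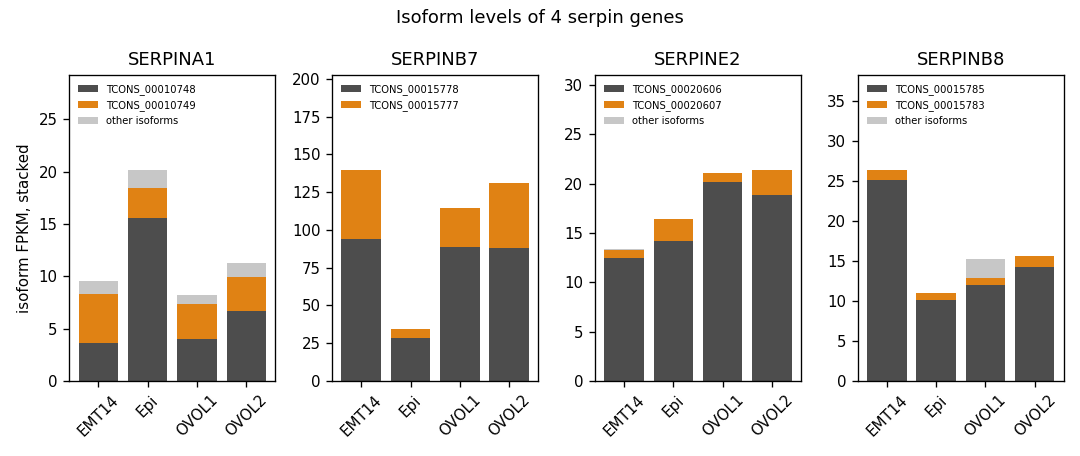
Stacked isoform FPKM of SERPINA1, SERPINB7, SERPINE2 and SERPINB8 in each line, each panel on its own axis from 0, with the leading 2 isoforms and any others summed. For SERPINA1, TCONS_00010748 makes up 15.6 FPKM in PC3-Epi and 3.62 FPKM in PC3-EMT14.

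Proteases that are known or possible targets of serpins were taken from a list of 50 symbols. The list holds CTSL and CTSV also under their older symbols CTSL1 and CTSL2, which are those of the tables. Of the 50 symbols, 48 were in the tables and 21 expressed. In PC3-Epi, 7 were at least 2-fold higher and 7 at least 2-fold lower than in PC3-EMT14, against 6.44% and 7.48% of all expressed genes. In PC3-EMT14-OVOL1, 3 were higher and 1 lower, among 20 with a ratio, against 2.53% and 1.16%. In PC3-EMT14-OVOL2, 7 were higher and 3 lower, against 4.05% and 2.41%. The largest ratios were those of ST14 (matriptase), a membrane protease of epithelia, at 0.53 FPKM in PC3-EMT14, 135 FPKM in PC3-Epi, 28.9 FPKM in PC3-EMT14-OVOL1 and 55.8 FPKM in PC3-EMT14-OVOL2. PRSS22 and PRSS8 (prostasin) followed in both OVOL lines, at 4.45-fold and 2.95-fold higher in PC3-EMT14-OVOL1 and 6.68-fold and 5.11-fold higher in PC3-EMT14-OVOL2. In PC3-Epi, KLK5, a kallikrein of the epidermis, was 70.8-fold higher and PRSS22 29.3-fold higher than in PC3-EMT14. Levels in PC3-EMT14 were 0.53 FPKM for ST14, 0.69 FPKM for KLK5 and 0.34 FPKM for PRSS22. The ratios of these genes to PC3-EMT14, in PC3-Epi and in the OVOL lines, therefore rest on low values. SERPINB3, the serpin with the largest ratio on the higher side, was at 6.59-fold in PC3-Epi, below ST14, KLK5, PRSS22, KLK6 and PRSS8. In PC3-EMT14-OVOL1 its ratio of 5.92-fold lay below that of ST14 and above those of PRSS22 and PRSS8. In PC3-EMT14-OVOL2 its ratio of 6.09-fold lay below those of ST14 and PRSS22 and above that of PRSS8.

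On the lower side, C1S, a protease of complement, was 33.5-fold lower in PC3-Epi, and HTRA1, a secreted protease, 17.8-fold lower. Their levels in PC3-Epi were 0.156 and 0.758 FPKM, so these ratios also rest on low values. PLAT, the target of SERPINI1, was at 332 FPKM in PC3-EMT14, 9.99 FPKM in PC3-Epi, 325 FPKM in PC3-EMT14-OVOL1 and 135 FPKM in PC3-EMT14-OVOL2. PLAT was thus 33.3-fold lower in PC3-Epi and 2.39-fold lower in PC3-EMT14-OVOL2. Set against PC3-EMT14 within its own table, PC3-EMT14-OVOL1 had a log2 ratio of -0.0014, so the PLAT values of these lines were nearly equal. Of the OVOL lines, PLAT was lower in PC3-EMT14-OVOL2 and SERPINI1 lower in PC3-EMT14-OVOL1. PLAU, the target of SERPINB2, was at 984 FPKM in PC3-EMT14, 927 FPKM in PC3-Epi and 2016 FPKM in PC3-EMT14-OVOL2. It was listed at 0 in PC3-EMT14-OVOL1, where the status field marks too many fragments to estimate, so that entry is not a level. KLK10 and HTRA1 were 2.39-fold and 2.46-fold lower in PC3-EMT14-OVOL2, and KLK10 was 2.18-fold lower in PC3-EMT14-OVOL1, with KLK11 and HTRA1 at 1.94-fold and 1.84-fold. Between the OVOL lines, only CASP1 (2.03-fold higher in PC3-EMT14-OVOL2, in a row shared with CARD17) and PLAT (2.39-fold lower) reached 2-fold. They were 1 higher and 1 lower of 20 proteases with a ratio, against 1.6% and 1.15% of all expressed genes. ST14 and KLK6 were each 1.95-fold higher, while HTRA1 and PRSS3 were 1.34-fold and 1.28-fold lower.

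Of 12 listed receptors and cofactors of serpins or of their target proteases, 10 were expressed. In PC3-Epi, 1 was at least 2-fold higher and 5 at least 2-fold lower than in PC3-EMT14, against 6.44% and 7.48% of all expressed genes. VLDLR, an endocytic receptor for serpin complexes, was at 4.78 FPKM in PC3-EMT14, 0.43 FPKM in PC3-Epi, 2.34 FPKM in PC3-EMT14-OVOL1 and 1.75 FPKM in PC3-EMT14-OVOL2. LRP1, which clears complexes of serpins with their targets, was 3.31-fold lower in PC3-Epi, and THBD, the thrombin cofactor thrombomodulin, 4.04-fold lower. F3, or tissue factor, was 2.86-fold higher in PC3-Epi, followed by SORL1 at 1.75-fold. In PC3-EMT14-OVOL1, none of the 10 reached 2-fold, against 2.53% higher and 1.16% lower among all expressed genes. VLDLR came just under 2-fold lower, and PLAUR was 1.35-fold and F2RL1 1.25-fold lower. F3 was 1.49-fold higher there, LRP8 1.46-fold and PROCR, the protein C receptor, 1.31-fold. In PC3-EMT14-OVOL2, 0 were at least 2-fold higher and 2 lower, against 4.05% and 2.41% of all expressed genes. VLDLR was 2.65-fold lower there and F2R, the thrombin receptor, 2.37-fold lower. F2RL1, a relative of F2R, was 1.56-fold lower. THBD was 1.29-fold, F3 1.25-fold and PROCR 1.20-fold higher. Compared with PC3-EMT14-OVOL1, 0 were at least 2-fold higher in PC3-EMT14-OVOL2 and 1 lower, against 1.6% and 1.15% of all expressed genes. F2R was 2.68-fold, VLDLR 1.33-fold and LRP8 1.26-fold lower in PC3-EMT14-OVOL2, and THBD was 1.47-fold, PLAUR 1.29-fold and LRP1 1.27-fold higher. PLAUR, the urokinase receptor, was at 63.8 FPKM in PC3-EMT14, 27.3 FPKM in PC3-Epi, 46.3 FPKM in PC3-EMT14-OVOL1 and 59.0 FPKM in PC3-EMT14-OVOL2.

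**Figure D5:**
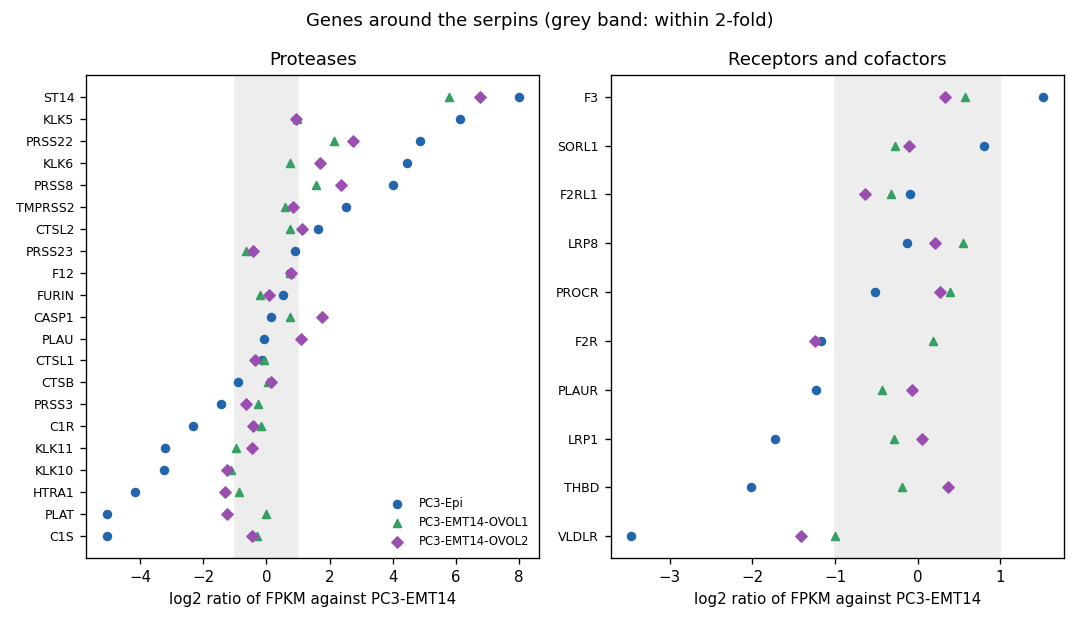
Log2 ratio of pooled FPKM over PC3-EMT14 in PC3-Epi and the OVOL lines, with a grey band for differences within 2-fold. The left panel holds expressed proteases listed as known or possible targets of serpins, and the right panel expressed receptors and cofactors of serpins or of those proteases. ST14 lies highest in PC3-Epi and both OVOL lines (7.99, 5.80 and 6.76), and PLAT lies low in PC3-Epi (-5.06) and near 0 in PC3-EMT14-OVOL1.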

How the data were processed

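RNA was isolated from 10 cultured samples in 4 groups given by the sample labels, and paired-end reads of 50 bases were sequenced. The authors aligned the reads to hg19 with TopHat. With Cuffdiff they deposited 1 FPKM value per line for each gene and isoform in 4 comparisons, pooled over samples. The Cuffdiff settings corrected for multi-mapped reads and sequence bias. They also set upper-quartile normalization and counted only fragments compatible with the reference transcripts for scaling. Strandedness is not given in the sources used here. The tables also hold the authors' fold changes, test statistics, p-values and q-values, which were not used. No further columns of per-sample values were present.

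PC3-EMT14 and PC3-Epi levels came from their own table and OVOL levels from the tables against PC3-EMT14. Between tables, values of the same line and serpin had ratios of 0.968 to 1.00. Ratios used the values of 1 table, with no pseudocount, and a gene was counted at 2-fold or more. Named were all serpins at 1 FPKM or above and, from the partner lists, the 3 largest ratios in each direction and comparison. PLAU, PLAUR in all lines, PI4KA, some low serpins and the isoforms described were added after their values were seen. The members and lists were chosen with earlier results of these data known.

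Promoters were RefSeq windows of 300 bases of GRCh38.p14, matched for 27 of the 34 serpins by symbol, with some genes having more than 1. Positions of genes are those of hg19, from the tables and the GENCODE annotation. Calculations used Python 3.11.15, pandas 2.3.3 and numpy 2.4.6, and the counting was tested on simulated tables with planted ratios. Alternatives were thresholds of 1.5-fold and 4-fold, a filter at 5 FPKM or none, a pseudocount of 1 FPKM, status OK rows, summed isoforms, centring and the values of other tables. Of 35 serpin rows that match the naming rule, 1 is not reported here and was left out of the counts and sums, as were single genes of the receptor and prostate lists. Protein stretches planned for the text were not printed.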

Additional observations from a re-analysis of the deposited data

How the results depend on the processing

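No paired analysis was possible because the deposited tables pool the samples of a line into 1 value, and for the same reason no sample could be left out in turn. No count of serpins has a replicate check, and depth is unknown. For the other thresholds and filters below, the share over all genes was not computed, so these counts have no background. With a 1.5-fold threshold, the number higher was 5 in PC3-Epi, 3 in PC3-EMT14-OVOL1 and 6 in PC3-EMT14-OVOL2, and 4 between the OVOL lines, and the number lower was 3 in each OVOL line against PC3-EMT14. With a 4-fold threshold, 1 was higher in PC3-Epi and 1 in PC3-EMT14-OVOL2, 0 were lower in PC3-EMT14-OVOL1 and 0 in PC3-EMT14-OVOL2, and 0 were higher between the OVOL lines. With a mean of at least 5 FPKM, 0 were lower in PC3-EMT14-OVOL1. With no filter, over 27 serpins with a value above 0 (28 between the OVOL lines), the number higher was 7 in PC3-Epi, 4 in PC3-EMT14-OVOL1, 11 in PC3-EMT14-OVOL2 and 7 between the OVOL lines, and the number lower was 9 in PC3-Epi, 2 in PC3-EMT14-OVOL1, 2 in PC3-EMT14-OVOL2 and 3 between the OVOL lines, because genes with values near 0 enter. The other 68 counts and medians stayed within 1.5-fold, but the median log2 ratio in PC3-Epi turned from 0.16 to -0.20 with no filter, and no other median changed sign. Of the ratios of named serpins under the alternatives, 180 stayed within 1.5-fold, 0 changed direction and 2 moved by more, both with a pseudocount of 1 FPKM, which brought the log2 ratios in PC3-Epi to -2.65 for SERPINB2 and -2.06 for SERPINI1. The same pseudocount brought SERPINB4 in PC3-Epi to 0.68, under the 2-fold limit, and centring brought SERPINF2 in PC3-EMT14-OVOL2 to 1.01, past it.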
